A study of Danio rerio with 6 samples.

Results

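Basement membrane genes were defined by name in the deposited count table of *fbln1* mutant zebrafish heads. They comprised every laminin chain gene (names starting with *lama*, *lamb* or *lamc* and a digit), every type IV collagen gene (*col4a*), every nidogen gene (*nid*), the proteoglycan core genes *hspg2* and *agrn*, and the multiplexin collagen genes *col15a1b*, *col18a1a* and *col18a1b*. The name *col15a1a*, which also belongs to this definition, matched no row and is not analysed here. In all, 28 of the 32520 listed genes were members, with 13 laminin chains, 6 type IV collagens, 4 nidogens and 5 proteoglycan and multiplexin genes. The definition uses gene names only, and it was drawn up with earlier results of these data known.

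A basement membrane is the thin sheet of matrix under epithelia and endothelia and around muscle fibres and nerves. Laminins, each a trimer of an alpha, a beta and a gamma chain, form a network on the cell surface, and type IV collagen forms another, covalently linked network. Nidogens and the heparan sulfate proteoglycan perlecan connect both, and cells hold on to the sheet through integrins and dystroglycan. Fibulin-1, the product of the mutated gene, is a secreted glycoprotein of basement membranes and elastic fibres that binds laminin and nidogen in mammals.

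RNA-Seq was performed at 10 dpf (days post fertilization) on 3 pools of heads of *fbln1*-/- mutants (labelled genotype ulg075) and 3 pools of heads of wild type larvae (WT, labelled ABwt), all on the AB background. Mutants were homozygous for a CRISPR/Cas9 deletion in the coding region and came from crosses of heterozygous parents. The series' design calls the WT larvae their siblings. Each pool held 21 heads by the labels and about as many by the design text, and the growth notes name the transgenic line ulg071 Tg, a reporter of bone-forming cells, without saying whether these larvae carried it. The ulg075 line is 1 mutant allele, and whole heads mix all cell types. More cells of a type, more RNA per cell and unequal shares of other tissue in the pools therefore cannot be told apart. The paper's methods describe pooled heads, whereas its results section speaks of RNA from whole larvae. Gene counts summed to between 15174207 and 18721515 reads in the 6 libraries, and the deposited values are these counts divided by 1 size factor per library (normalized counts). At this depth 3 reads correspond to 2.60 to 3.20 normalized counts, a floor that covers counting error only. The *fbln1* mRNA itself had 93.2, 53.1 and 39.9 normalized counts in mutant pools 1, 2 and 3, against 77.4, 136 and 70.4 in WT pools 1, 2 and 3. These values overlapped between the groups, with a log2 fold change of -0.63 (95% interval -1.34 to 0.09, limma adjusted p = 0.162). A gene count does not read the deletion itself, so it does not check the genotypes, and pools are named here by their labels. The first principal component, with 67.3% of the variance, separated the 3 pools labelled mutant from the 3 labelled WT.

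Many basement membrane genes were more highly expressed in mutant heads, and 15 of the 27 tested members were called higher while none was called lower. The increases covered the alpha chains *lama3* and *lama4*, the beta chains *lamb1a*, *lamb2* and *lamb4*, the gamma chain *lamc1*, the type IV collagens *col4a1*, *col4a2*, *col4a5* and *col4a6*, the 3 tested nidogens and both *col18a1* genes. A gene was tested when 3 or more libraries held 10 or more normalized counts of it, and called when the adjusted p of limma was under 0.05 and the log2 fold change was beyond 0.5 in either direction. Over all 20691 tested genes, 15.4% were called higher and 2.68% lower. Log2 fold changes of the called members ranged between 0.62 for *lamc1* and 2.57 for *lama3*. On the linear scale, the mean normalized count of the mutant pools was 1.54 times the WT mean for *lamc1* and 6.66 times the WT mean for *lama3*, whose low values are shrunk on the log2 scale by the added count of 1. Among the members with a negative fold change, *agrn* and *col15a1b* had an unadjusted p under 0.05 in limma (2 genes). The share of all tested genes under this rule was not computed, so the count has no background beside it. Neither edgeR nor DESeq2 called a member lower. For *col15a1b* the adjusted p was 0.0226 in edgeR and 0.00647 in DESeq2, but its log2 fold changes of -0.34 and -0.36 were short of the limit. In limma, the adjusted p of *col15a1b* was 0.0725 without the variance trend and 0.0656 without WT pool 1. The median over the 27 members was 0.72, beside -0.03 over all tested genes. Of the 28 members *nid2b* did not pass the filter, and *lama3* passed it through its mutant pools alone, so that it could not have been tested without being higher there. With the limit on the fold change left out, *hspg2* and *lama5* joined the higher genes and *col15a1b* was lower, giving 17 higher and 1 lower against 18.9% and 15.1% of all tested genes. The 3 mutant pools all lay above the 3 WT pools for 17 members (24.5% of all tested genes) and below them for 1 member (24.3%).

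**Figure D1:**
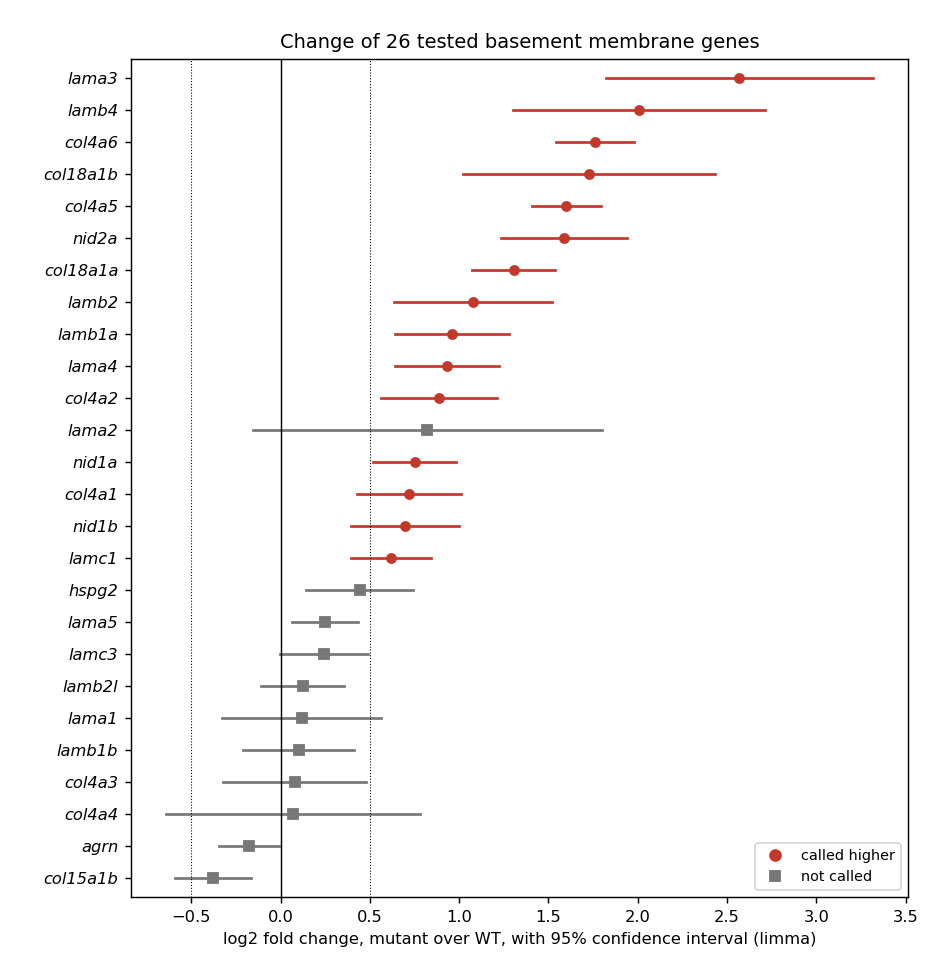
Log2 fold change of mutant over WT heads (x axis) for 26 of the 27 tested basement membrane genes (y axis), with points for the limma estimate, bars for its 95% interval and dotted lines at the fold change limits of -0.5 and 0.5. The 15 called genes, drawn as red circles, lie between 0.62 and 2.57, and *col15a1b* at -0.38 is the lowest of the grey squares that were not called.

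The alpha chains give each laminin its binding to cells. Transcripts of *lama3* (ENSDARG00000071462), whose human counterpart is the alpha chain of the laminin under skin hemidesmosomes, had 60.5, 40.6 and 41.6 normalized counts in mutant pools 1, 2 and 3, against 7.23, 5.65 and 8.54 in the WT pools. The mutant pools were all far above the WT pools, which held only 7, 6 and 8 reads each. Its log2 fold change of 2.57 was the largest among the members, with a standard error (SE) of 0.34 and an adjusted p of 0.000342 in limma. The *lama4* gene (ENSDARG00000020785), which encodes the alpha chain best known from blood vessels, had 444, 632 and 471 normalized counts in mutant pools, against 249, 276 and 276 in WT pools. Mutant pool 2 stood above the other mutant pools, and none of the 3 overlapped with WT. The log2 fold change of *lama4* was 0.93 (SE 0.13, adjusted p = 0.000551).

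The other alpha chains changed less or too variably to be called. The *lama5* gene, needed for the epidermal basement membrane of the zebrafish fin fold, had 638, 729 and 704 normalized counts in mutant pools, against 603, 563 and 577 in WT pools. The groups did not overlap, but the log2 fold change of 0.25 (95% interval 0.06 to 0.43, adjusted p = 0.0423) stayed under the limit of 0.5. For *lama2*, the muscle alpha chain whose loss causes muscle fibre detachment in zebrafish, values were 26.6, 44.8 and 39.0 normalized counts in mutant pools and 13.4, 13.2 and 43.7 in WT pools. WT pool 3 was as high as the mutant pools, and the log2 fold change of 0.82 was not called (95% interval -0.16 to 1.80, adjusted p = 0.176). Without WT pool 3 the log2 fold change of *lama2* was 1.37, with an adjusted p of 0.024 (limma), which ranged between 0.024 and 0.427 over all alternatives. It was 0.55 without WT pool 1 and 0.54 without WT pool 2, and not called in either case. The *lama1* gene, the alpha chain of early embryonic laminin and of eye basement membranes, had 118, 149 and 135 normalized counts in mutant pools, against 88.8, 147 and 142 in WT pools. These ranges overlapped, and the log2 fold change was 0.12 (95% interval -0.33 to 0.56, adjusted p = 0.683).

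Of the 5 beta chains, 3 were called higher. *lamb4* (ENSDARG00000039133) had 142, 177 and 141 normalized counts in mutant pools, against 50.6, 19.8 and 51.2 in WT pools. WT pool 2 was the lowest, and even the highest WT pool had less than any mutant pool. Its log2 fold change was 2.01 (SE 0.32, limma adjusted p = 0.00115), and it was 1.57 without WT pool 2. *lamb2* (ENSDARG00000002084), counterpart of the mammalian beta chain of the neuromuscular junction and kidney glomerulus, had 213, 325 and 207 normalized counts in mutant pools, against 93.9, 114 and 141 in WT pools. Mutant pool 2 was again the highest, and the log2 fold change was 1.08 (SE 0.20, adjusted p = 0.00278). *lamb1a* (ENSDARG00000101209), the widely used beta chain that zebrafish need to form a notochord, had 411, 492 and 459 normalized counts in mutant pools, against 187, 239 and 280 in WT pools, with a log2 fold change of 0.96 (SE 0.14, adjusted p = 0.000773).

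The remaining beta chain genes *lamb1b* and *lamb2l* were not called. Normalized counts of *lamb1b* were 288, 378 and 289 in mutant pools, against 255, 294 and 339 in WT pools, so that the groups overlapped. For *lamb2l* they were 407, 472 and 503 in mutant pools and 441, 385 and 440 in WT pools, again with overlap. The log2 fold changes were 0.10 for *lamb1b* (95% interval -0.21 to 0.41, adjusted p = 0.612) and 0.12 for *lamb2l* (95% interval -0.11 to 0.36, adjusted p = 0.394).

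Among the gamma chains, *lamc1* (ENSDARG00000036279), a subunit of most laminin trimers, had 782, 958 and 796 normalized counts in mutant pools, against 503, 589 and 554 in WT pools. Its log2 fold change of 0.62 was the smallest of the called members (SE 0.10, limma adjusted p = 0.0013), and the groups did not overlap. For *lamc3* the values were 301, 346 and 354 normalized counts in mutant pools and 312, 260 and 274 in WT pools, with a log2 fold change of 0.24 (95% interval -0.01 to 0.49, adjusted p = 0.119). Mutant pool 1 lay below WT pool 1, so that the groups overlapped.

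**Figure D2:**
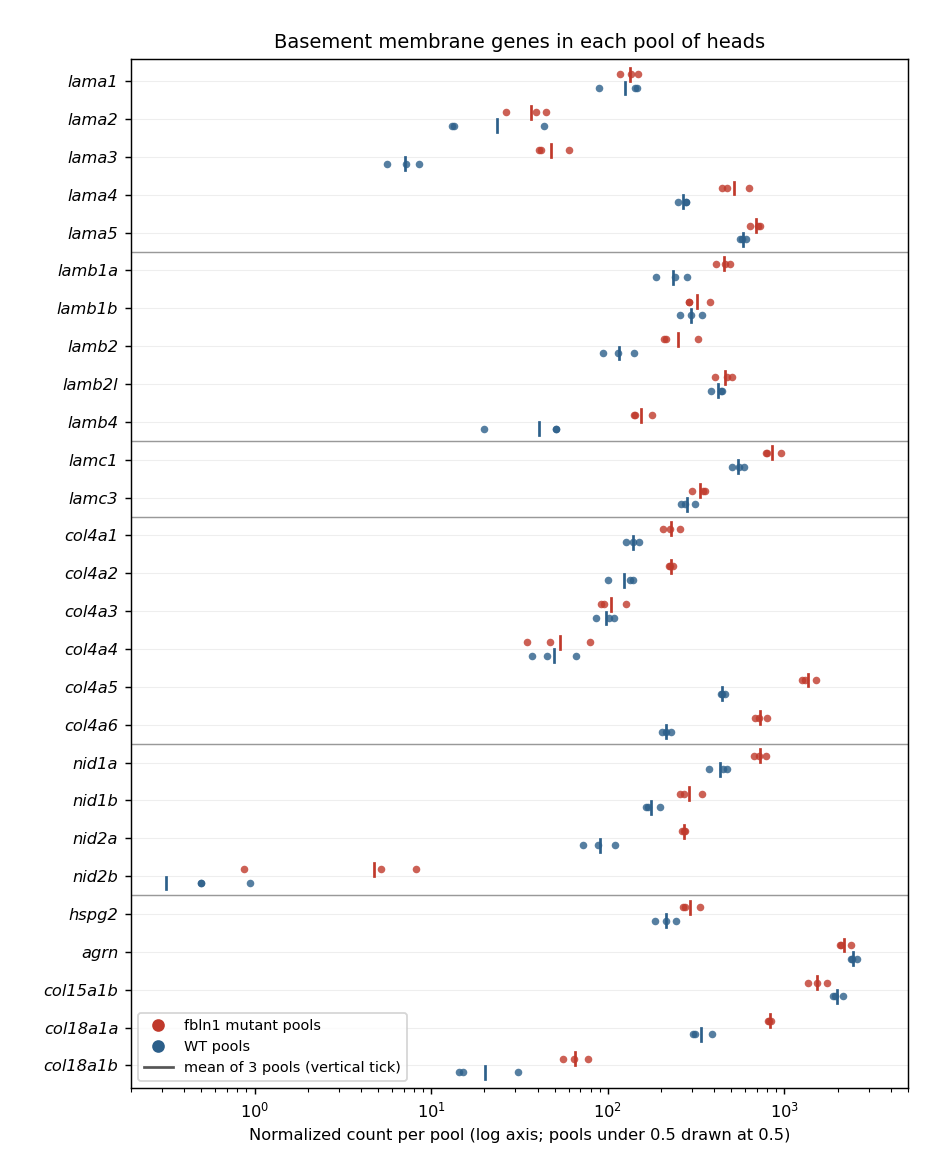
Normalized counts on a log axis (x) of 27 of the 28 basement membrane genes (y, grouped as alpha, beta and gamma laminin chains, type IV collagens, nidogens, and proteoglycan and multiplexin genes) in each pool of heads, with red points for mutant pools, blue points for WT pools and a tick at each mean. The mutant pools of *col4a5* lie between 1259 and 1511 and its WT pools between 436 and 460, whereas the points of both groups mix for *col4a3*, *col4a4*, *lama1* and *lamb1b*.

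Type IV collagen chains assemble into 3 kinds of trimers, in mammals a widespread one of alpha1 and alpha2, one of alpha3, alpha4 and alpha5 in kidney, lung, ear and eye, and one of alpha5 and alpha6 in skin and smooth muscle. Here the 6 genes are described in 3 sets by the size of their estimated change. The sets with the smaller changes were not compared with each other. The largest changes were those of *col4a5* and *col4a6*. For *col4a5* (ENSDARG00000052063), normalized counts were 1305, 1511 and 1259 in mutant pools, against 460, 441 and 436 in WT pools. *col4a6* (ENSDARG00000052061) had 714, 798 and 680 in mutant pools, against 202, 229 and 213 in WT pools. Mutant pools thus held between 680 and 798 counts of *col4a6* where no WT pool held more than 229. The log2 fold change was 1.60 for *col4a5* (SE 0.09, limma adjusted p = 8.86e-07) and 1.76 for *col4a6* (SE 0.10, adjusted p = 1.005e-06).

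The chains of the widespread trimer changed by smaller amounts. *col4a1* (ENSDARG00000055009) had 206, 225 and 255 normalized counts in mutant pools, against 126, 139 and 149 in WT pools, and *col4a2* (ENSDARG00000104110) had 223, 235 and 226 in mutant pools, against 100, 139 and 133 in WT pools. The groups did not overlap for either gene. Their log2 fold changes were 0.72 (SE 0.13, limma adjusted p = 0.00266) and 0.89 (SE 0.15, adjusted p = 0.00141). Normalized counts of *col4a3* were 91.2, 127 and 95.3 in mutant pools and 101, 108 and 85.4 in WT pools, and those of *col4a4* were 47.1, 79.2 and 34.7 in mutant pools and 66.1, 45.2 and 37.3 in WT pools. Both genes overlapped between the groups. The log2 fold changes of 0.08 for *col4a3* (95% interval -0.32 to 0.48, adjusted p = 0.769) and 0.07 for *col4a4* (95% interval -0.64 to 0.78, adjusted p = 0.887) turned to negative values without mutant pool 2 or without WT pool 3. At the level of *col4a4*, a change as large as that of *col4a1* lies within its interval.

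Of these sets, *col4a5* and *col4a6* were compared directly with *col4a1* and *col4a2*. The summed normalized counts of *col4a5* and *col4a6* were divided by those of *col4a1* and *col4a2* within each pool. This ratio does not depend on the scaling between libraries, but it was chosen with reported values of these genes known. On the log2 scale this ratio was 2.23, 2.32 and 2.01 in mutant pools, against 1.55, 1.27 and 1.20 in WT pools. All mutant pools had the higher ratio, with means of 2.19 ± 0.16 and 1.34 ± 0.19 (SD, n = 3 each), and the difference was 0.85. An exact two-sided permutation test gave p = 0.1, the smallest value that 3 pools against 3 allow, so that this design could not pass 0.05.

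Nidogens bridge the laminin and the type IV collagen network. *nid2a* (ENSDARG00000075707) had 274, 271 and 263 normalized counts in mutant pools, against 110.5, 87.6 and 72.6 in WT pools. The mutant pools were nearly equal to each other, and the lowest of them held more than any WT pool. The log2 fold change was 1.59 (SE 0.16, limma adjusted p = 5.99e-05). For *nid1a* (ENSDARG00000068710) the values were 714, 785 and 677 in mutant pools, against 474, 449 and 374 in WT pools. *nid1b* (ENSDARG00000103129) had 255, 339.6 and 269 in mutant pools, against 169, 164 and 196 in WT pools. Neither gene overlapped between the groups, and their log2 fold changes were 0.75 (SE 0.11, adjusted p = 0.000521) and 0.69 (SE 0.14, adjusted p = 0.0039). The *nid2b* gene was close to the limit of detection, with 8, 5 and 1 reads in mutant pools and 0, 1 and 0 reads in WT pools. No WT pool and 2 of the 3 mutant pools exceeded 3 reads, and no fold change is given.

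Perlecan (*hspg2*), the large heparan sulfate proteoglycan of most basement membranes, had 275, 334 and 267 normalized counts in mutant pools, against 215, 244 and 186 in WT pools. The mutant pools were above the WT pools, and the log2 fold change of 0.44 (95% interval 0.14 to 0.74, limma adjusted p = 0.0287) was just below the limit. It was above that limit, and called, without mutant pool 3 (0.50) or without WT pool 2 (0.54). Without mutant pool 2 or without WT pool 3 it was 0.34, with limma adjusted p of 0.106 and 0.109. Over all alternatives the adjusted p of *hspg2* ranged between 0.012 and 0.109. Agrin (*agrn*), the proteoglycan that clusters acetylcholine receptors at neuromuscular junctions and is also abundant in brain, had 2073, 2079 and 2372 normalized counts in mutant pools, against 2561, 2372 and 2427 in WT pools. Mutant pool 3 reached the level of WT pool 2, so that the groups overlapped. With an adjusted p of 0.101, the log2 fold change of -0.18 did not pass the test (95% interval -0.35 to -0.01).

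The multiplexins, collagens XV and XVIII, lie at the outer face of basement membranes, and the end of collagen XVIII can be cut off as endostatin. *col18a1a* (ENSDARG00000036558) had 841, 821 and 810.2 normalized counts in mutant pools, against 304, 391 and 310.5 in WT pools. *col18a1b* (ENSDARG00000095901) had 76.9, 64.6 and 55.5 in mutant pools, against 14.5, 15.1 and 30.9 in WT pools. The lowest mutant pool exceeded the highest WT pool for both genes. Log2 fold changes were 1.31 for *col18a1a* (SE 0.11, limma adjusted p = 1.28e-05) and 1.73 for *col18a1b* (SE 0.32, adjusted p = 0.00273). In contrast, *col15a1b* (ENSDARG00000061848) had 1522, 1352 and 1740 normalized counts in mutant pools, against 2148, 1932 and 1892 in WT pools. It was the single member whose mutant pools all lay below the WT pools. Its log2 fold change was -0.38 (95% interval -0.59 to -0.16, adjusted p = 0.0135), which is past the threshold on p and short of the limit on the fold change.

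Several members lie next to each other on the chromosome. By gene symbol, 27 of the 28 members were found among the protein-coding genes of the RefSeq annotation of the GRCz12tu assembly, which is not the build the authors used, so it served only to find neighbours. The neighbouring members compared here were *col4a1* and *col4a2*, *col4a3* and *col4a4*, *col4a5* and *col4a6*, *lamb1a* and *lamb4*, and *lamb2* and *lamb2l*. In mammals the paired type IV collagen genes are transcribed in opposite directions from a shared promoter region. The 3 collagen pairs had log2 fold changes that differed by 0.17, 0.01 and 0.16 within the pair. Those of *lamb1a* and *lamb4* differed by 1.05, and those of *lamb2* and *lamb2l* by 0.95. Within pools, the *lamb4* to *lamb1a* difference was 0.58 without WT pool 2 and 1.42 without WT pool 1, and the *col4a6* to *col4a5* difference was 0.093 without WT pool 1. Without WT pool 1 the *col4a2* to *col4a1* difference was 0.090, and without mutant pool 3 it was 0.26. The *col4a3* to *col4a4* difference was -0.20 without mutant pool 3 and 0.18 without mutant pool 2, so that its 0.01 is imprecise. Shared regulation within the pairs was not tested.

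These differences were examined as log2 ratios within each pool, together with ratios between other related members. The type IV collagen ratio given above was chosen with reported values of its genes known. The other 8 ratios were chosen after the values here had been seen. With 9 ratios, all p-values of exact two-sided permutation tests were 0.1 or larger, before as well as after Benjamini-Hochberg adjustment, so none passed 0.05. The ratio of *lamb4* to *lamb1a* was -1.52, -1.47 and -1.69 in mutant pools, against -1.86, -3.53 and -2.43 in WT pools, so that the mutant pools were higher but the WT pools varied widely. For *lamb2* over *lamb2l* it was -0.93, -0.54 and -1.27 in mutant pools, against -2.22, -1.74 and -1.64 in WT pools. For *lamb1a* over its duplicate *lamb1b* it was 0.51, 0.38 and 0.67 in mutant pools, against -0.45, -0.30 and -0.28 in WT pools. This ratio was thus higher in every mutant pool than in any WT pool. The log2 ratio of *lama4* to *lama5* differed by 0.68 between the group means and that of *col18a1a* to *col15a1b* by 1.68, with no overlap between the pools in either. For *col4a2* over *col4a1* and *col4a3* over *col4a4* the pools of both groups overlapped, with differences of 0.17 and 0.01. The ratio of *col4a6* to *col4a5* was -0.87, -0.92 and -0.89 in mutant pools, against -1.18, -0.94 and -1.03 in WT pools, a small difference of 0.16 without overlap.

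**Figure D3:**
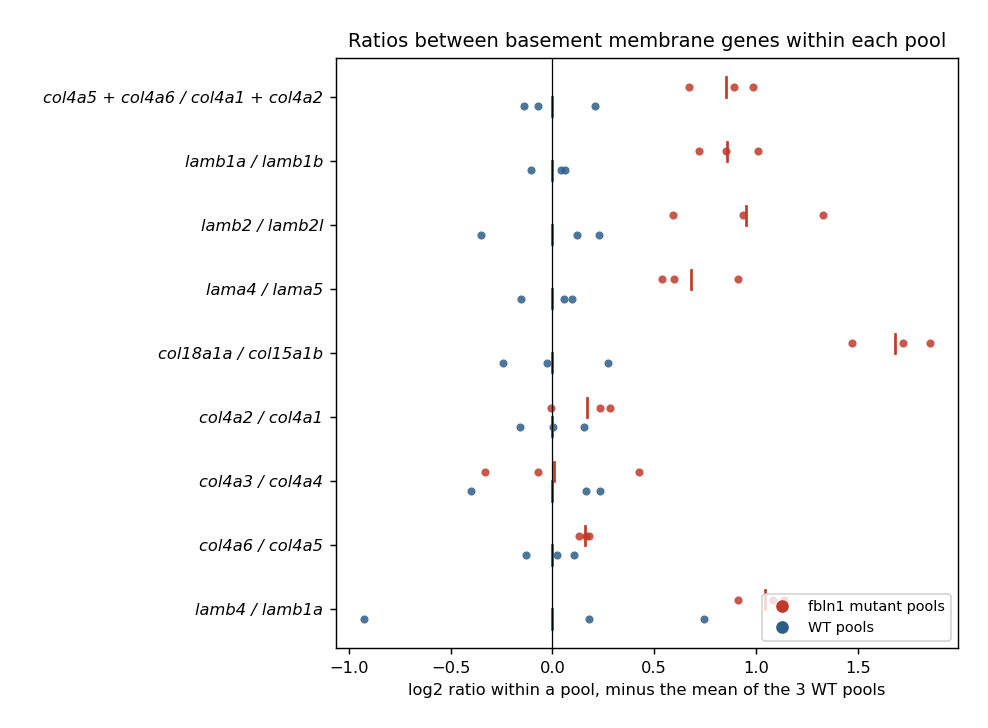
Log2 ratio between members within each pool, minus the mean of the 3 WT pools (x axis), for 9 ratios (y axis), with red points for mutant pools, blue points for WT pools and a tick at each mean. The mutant pools lie to the right of the WT pools for 7 ratios, by 0.85 on average for *col4a5* and *col4a6* over *col4a1* and *col4a2*, and the pools overlap for *col4a2* over *col4a1* and *col4a3* over *col4a4*. The ratios were chosen with values known and have the genes with the larger log2 fold change on top. Their shared direction therefore restates those fold changes.

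Among the mutant pools, pool 2 had the highest value of the 3 mutant pools for 18 of the 27 tested members (66.7%), whereas it was the highest for 32.0% of all tested genes. Pools 1 and 3 were the highest for 4 and 5 members. Among the WT pools, pools 1, 2 and 3 were the highest for 9, 8 and 10 members. The same 15 members were called higher when mutant pool 2 was left out. Summed over all 28 members, normalized counts were between 12470.5 and 13799 in mutant pools and between 9679 and 9869 in WT pools.

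Receptors and other proteins of the basement membrane zone were compared as a separate list of 54 gene names, of which 48 genes were tested. In this list 26 genes were called higher and none lower, beside the 15.4% and 2.68% of all tested genes given above, and the median log2 fold change was 0.62. With the limit on the fold change left out, 27 were higher and 2 were lower, beside 18.9% and 15.1% of all tested genes. In limma, 5 genes with a negative fold change had an unadjusted p under 0.05, for which the share of all tested genes was not computed. Neither edgeR nor DESeq2 called a gene of this list lower. Of the called genes, *col17a1a* and *col17a1b*, which code for the transmembrane collagen of hemidesmosomes, had the largest changes. *col17a1a* averaged 639 ± 78.0 normalized counts in mutant and 112 ± 17.2 in WT pools (SD, n = 3 each), with a log2 fold change of 2.50 (SE 0.14, limma adjusted p = 1.005e-06). *col17a1b* had a log2 fold change of 1.81 (SE 0.24, adjusted p = 0.000311). Next came *hmcn2*, a giant relative of the fibulins, with 1.64 (SE 0.33, adjusted p = 0.00441), and *sparc*, a protein that binds type IV collagen, with 1.54 (SE 0.10, adjusted p = 3.28e-06). The fifth was the beta1 integrin gene *itgb1b.1*, with 1.53 (SE 0.24, adjusted p = 0.00111), for which reads could be split with the similar copies *itgb1b* and *itgb1b.2*. The name *hmcn2* is given to 2 listed genes, of which 1 was tested and the other had 0 reads in every library. Among the laminin receptors, singled out after their values were seen, *itgb4* and *itga6b* code for subunits of the hemidesmosome integrin and were called higher. *itgb4* averaged 266 ± 72.9 normalized counts in mutant and 121 ± 6.62 in WT pools (SD, n = 3 each, limma adjusted p = 0.00112), and *itga6b* 190.2 ± 60.0 in mutant and 102.8 ± 18.6 in WT pools (SD, n = 3 each, limma adjusted p = 0.0129). The other tested alpha6 genes of the list differed from each other: *itga6l* was called higher (log2 fold change 0.93, limma adjusted p = 0.0374), whereas *itga6a* averaged 221 normalized counts in mutant and 257 in WT pools and was not called (log2 fold change -0.22, 95% interval -0.48 to 0.05, adjusted p = 0.188). The dystroglycan gene *dag1* had 1629 ± 56.9 normalized counts in mutant and 1612 ± 14.3 in WT pools (SD, n = 3 each) and a log2 fold change of 0.01 (95% interval -0.13 to 0.16, adjusted p = 0.886).

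Markers of several other cell types moved with these genes, and their part in the results was not tested. Beside the counts of these and the following lists, 15.4% of all tested genes were called higher and 2.68% lower. With the limit on the fold change left out, 18.9% were higher and 15.1% lower. Of 10 markers of basal epidermis and skin keratinocytes, 9 were called higher, and their summed normalized counts were 67079 to 89903 in mutant and 23939 to 31910 in WT pools. Of 14 listed skeletal muscle genes (13 names), 13 were called higher, with sums of 176941 to 254565 in mutant and 85841 to 140457 in WT pools. Of 9 fibroblast and mesenchyme genes, 7 were called higher (sums of 9965 to 13360 in mutant and 2007 to 2124 in WT pools), and likewise 7 of 9 cartilage genes (sums of 7480.4 to 9290 in mutant and 1525 to 1910.3 in WT pools). By contrast, of 12 vascular endothelial genes 1 was called higher and 1 lower, with sums of 3343 to 3647 in mutant and 3684 to 4085 in WT pools. With the limit on the fold change left out, 1 of them was higher and 2 were lower. All mutant pools lay above all WT pools for 1 vascular gene and below them for 4 (24.5% and 24.3% of all tested genes). None of the 5 kidney podocyte genes was called by limma, with sums of 817 to 915 in mutant and 669 to 754 in WT pools. With the limit on the fold change left out, 1 of them, *podxl*, was higher (log2 fold change 0.33, limma adjusted p = 0.0159). Of 7 genes of Schwann cells and myelinating glia, 1 was called higher, with sums of 4344 to 5062 in mutant and 3766 to 4326.5 in WT pools. Every gene of these lists had reads in at least 1 library.

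The labelled tissue was checked with the neuronal, lens and cartilage lists, and 7 of 9 cartilage genes were called higher, as given above. None of the neuronal and lens genes was called by limma, among 7 and 6 tested genes. The absence of a call does not show that the pools held head tissue only. With the limit on the fold change left out, no lens gene passed, while *gap43* was higher (log2 fold change 0.49, adjusted p = 0.00811) and *syt1a* and *vamp2* were lower (-0.32 and -0.40, adjusted p = 0.0127 and 0.0118). For 5 of the 7 neuronal genes all mutant pools lay below all WT pools (24.3% of all tested genes). In limma, 1 positive and 3 negative ones had an unadjusted p under 0.05, for which the share of all tested genes was not computed. The neuronal genes summed to 36621 to 39054 normalized counts in mutant and 42514 to 43264 in WT pools, and the lens genes to 62167 to 68368 in mutant and 45020 to 77197 in WT pools. Genes of the gut region were present as well: all 13 listed intestinal genes (12 names) were called higher, of which 3 (*apoa4a*, *lct* and *LCT*) passed the filter through their mutant pools alone and had to be higher to be tested, with sums of 54333 to 103788 in mutant and 6611 to 10607 in WT pools, and so were 13 of 14 genes of the exocrine pancreas, with sums of 193369.7 to 326467 in mutant and 103378 to 189603 in WT pools. Of the 7 osteoblast genes 6 were tested and 4 were called higher, with sums of 1863 to 2423 in mutant and 686 to 741 in WT pools, while 1 was at 0 in every library. Of the 4, *ifitm5* passed the filter through its mutant pools alone.

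**Figure D4:**
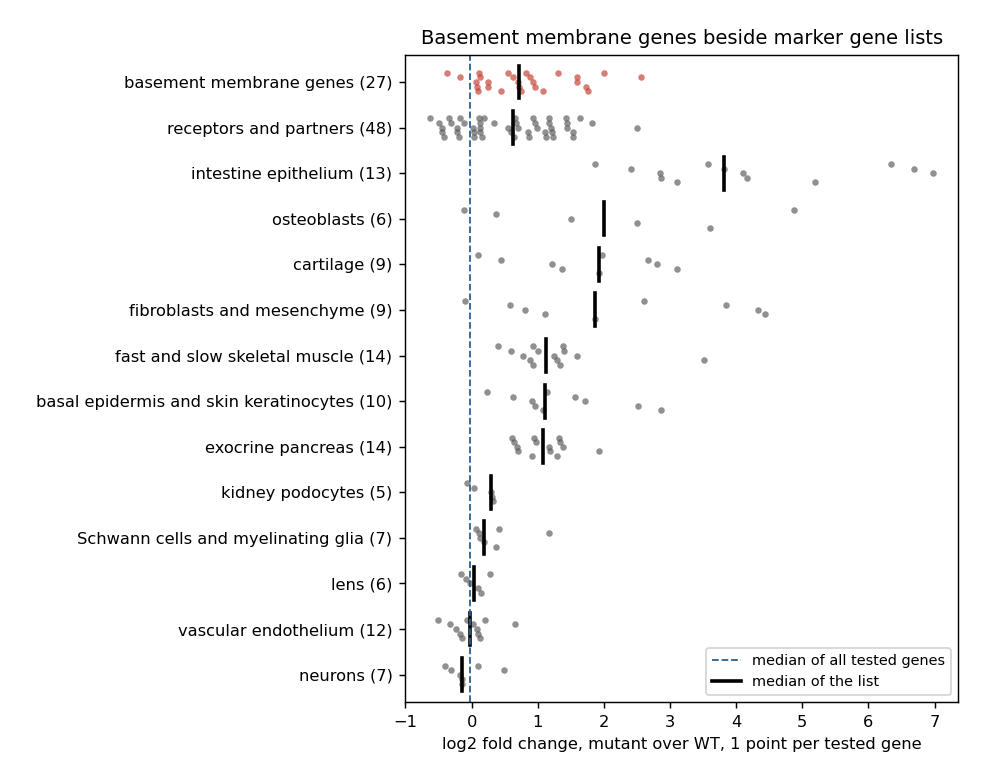
Log2 fold change of mutant over WT heads (x axis) for each tested gene of the basement membrane genes (red), of their receptors and partners and of 12 marker lists (grey, y axis, with the number of tested genes), with a black tick at the median of each list and a dashed line at the median of all tested genes (-0.03). The basement membrane genes have a median of 0.72. Among the 12 marker lists, the next higher medians are those of exocrine pancreas (1.07), basal epidermis (1.11) and skeletal muscle (1.13). The next lower median is that of kidney podocytes (0.30).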

How the data were processed

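RNA-Seq libraries of 3 pools of *fbln1* mutant heads and 3 pools of WT heads were used. The authors ran single-end reads of a stranded mRNA kit through nf-core/rnaseq with GRCz11 as genome and an Ensembl annotation, and the processing notes name DESeq2. The deposited values are a signal per gene, namely counts divided by 1 size factor per library. Divided by the value of 1 read, 100% of the values of each library were whole within 0.02 of a read (or, at high values, a millionth of the value), and these recovered reads gave the depth and the count tests. The deposited table of the authors' own comparison (fold changes, statistics and p-values) was not used.

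Normalized counts were compared as log2(value + 1) with limma version 3.58.1 in R version 4.3.3, with genotype as the only term and a variance trend, and Benjamini-Hochberg adjusted p-values were computed over all 20691 tested genes. The log2 scale with this pseudocount understates changes of low genes. Pools were averaged as separate samples, since pools of a group differed by a chi-square per degree of freedom of 5.80 to 15.2. The design names 3 independent batches, so p-values measure the spread between pools. Scripts were tested on simulated data. Alternatives covered scaling, filters, pseudocount, variance trend, edgeR version 4.0.16 and DESeq2 version 1.42.0 on recovered reads, the replicate block and leaving out each library. Every member is named but 1, which is counted in all totals and is not reported here. Of the partner list, the 5 called genes with the largest change and *fbln1* are named, others where stated. Members, lists and tests were chosen with earlier results of these data known. Sequences were not used here.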

Additional observations from a re-analysis of the deposited data

How the results depend on the processing

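The same 15 members were called higher in all 17 alternatives, among them the quasi-likelihood test of edgeR and DESeq2 on recovered reads. The alternative with no limit on the fold change reuses the main fit, so it had to include them. No member was called lower except under that rule (1 member, and 2 genes of the partner list). Over all genes, between 12.1% and 18.9% were called higher, whereas the 555 lower calls became 353 with TMM scaling, 320 with edgeR, 3116 with no limit on the fold change and 255 to 1105 with each library left out. Of the partner list, 1 gene was called lower with total count scaling, and 0 or 1 with each library left out. With the replicate block 15 members were called higher and none lower, and of the partner list 25 genes in place of 26 were higher. Over all alternatives, the higher genes of the partner list numbered between 21, without WT pool 1 or without WT pool 2, and 27, with no limit on the fold change. Same-numbered pools deviated together weakly at most (correlations of deviations 0.04, 0.15 and 0.04 for numbers 1, 2 and 3). For pools of different numbers the correlations lay between -0.09 and 0.05. Each pool correlated best with its own number except mutant pool 3 and WT pool 1 (0.05 with each other). The samples were not taken as paired in the main fit, and these values do not exclude a weak pairing.

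Uncalled genes changed sign when libraries were left out in turn: *col4a3* lay between -0.069 and 0.17 (-0.018 without WT pool 3), *col4a4* between -0.25 and 0.34 (-0.11 without WT pool 3), *lama1* between -0.11 and 0.25, and *lamb1b* between -0.029 and 0.20 (-0.0014 without WT pool 1). So did the ratio of *col4a3* to *col4a4*, between -0.20 and 0.18. The ratio of *col4a5* and *col4a6* to *col4a1* and *col4a2* stayed between 0.78 and 0.96. For *lama3*, *lama2* and *nid2b*, low counts limit the precision.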
